A study of Mus musculus with 6 samples.

Results

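The subunits of the oxidative phosphorylation system that are encoded in the nucleus were examined in mouse liver with and without SIRT1, an NAD-dependent protein deacetylase. Members were all probes of the array, other than control spots, whose gene name in the scanner files begins with Nduf followed by a, b, c, s or v, is Sdha, Sdhb, Sdhc or Sdhd, or begins with Uqcr, with Cox4 to Cox8 and a letter, or with Atp5. This gave 113 probes of 82 genes, out of 41174 probes with 27962 gene names: 52 probes of 37 genes for complex I, 6 of 4 for complex II, 10 of 7 for complex III, 21 of 18 for complex IV and 24 of 16 for complex V. The rule used names only, not measured values.

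The animals were male mice on a background that was 95% C57BL/6, 10 weeks old, on chow with free access to food and water, killed at 4 pm. The control group was Lox control mice and the other group liver-specific SIRT1 knockout mice (SIRT1 LKO), a deletion the series names as hepatocyte-specific. The sources used here name neither the Cre driver nor the deleted exons. Each replicate was a pool of RNA from 2 animals, of which 500 ng was labelled with Cy3 for its own whole mouse array (Agilent, 1 colour). Each group thus had 3 pools, and a p-value sets the difference between groups against the spread between pools of 1 genotype. In whole liver RNA, fewer cells of a type and less RNA per cell cannot be told apart.

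Oxidative phosphorylation passes electrons from NADH and succinate through complexes I, II, III and IV to oxygen, and complex V (ATP synthase) uses the proton gradient that complexes I, III and IV build across the inner mitochondrial membrane to make ATP. Most subunits are encoded in the nucleus and imported, while a small set of core subunits is encoded in mitochondrial DNA, and complex II is wholly nuclear. In liver this system oxidises the products of fatty acid and amino acid breakdown, and SIRT1 is known for deacetylating PGC-1alpha (Ppargc1a), a coactivator that acts with NRF1, GABP (NRF2), YY1 and ERRalpha on promoters of these genes.

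Short motifs named for these factors were looked for in the RefSeq promoter windows (build GRCm38.p6, 250 bases before to 50 from the start on) of the 67 member genes that had a window, on both strands. The NRF1 motif (the capitals of Atp5k below) was in the windows of 5 member genes (7.46%) against 1.07% of all 27025 genes, and the YY1 motif (the first capitals of Atp5j) in 5 (7.46%) against 0.995%. The GABP motif CCGGAAG was in 17 (25.4%) against 9.93%, and the ERRalpha motif TNAAGGTCA in 3 (4.48%) against 1.43%. In all, 26 genes held at least 1 of the 4 motifs and 41 held none. The GABP and YY1 motifs can share bases at an edge, and a match is a description of the letters. The stretches that end at the base before the start are shown for 4 members because they hold the motifs in a complex II, a complex IV and a pair of complex V genes whose values follow, with motif matches in capitals (CTTCCGG is the GABP motif read on the other strand).
Cox6a1, chr5:115348959-115349138, minus strand: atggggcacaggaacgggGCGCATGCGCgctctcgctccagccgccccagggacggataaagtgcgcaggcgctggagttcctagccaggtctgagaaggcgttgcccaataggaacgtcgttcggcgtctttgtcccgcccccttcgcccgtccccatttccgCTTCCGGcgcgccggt
Atp5j, chr16:84834977-84835076, minus strand: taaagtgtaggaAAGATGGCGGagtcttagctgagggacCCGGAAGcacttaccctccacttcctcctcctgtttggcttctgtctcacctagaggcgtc
Atp5k, chr5:108434400-108434469, minus strand: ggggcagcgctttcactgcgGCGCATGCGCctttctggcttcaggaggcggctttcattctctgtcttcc
Sdhd, chr9:50603850-50603919, minus strand: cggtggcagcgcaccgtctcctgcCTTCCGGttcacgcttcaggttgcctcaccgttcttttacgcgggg

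The 75th percentile of the processed intensity lay between 1005 and 1056 on 5 arrays and was 1289 on the array of LKO pool 3, and 52.2% to 66.4% of probes were well above background. Slide 1 held the controls, slide 2 held LKO pools 1 and 2, and slide 3 held LKO pool 3, so that slide and genotype cannot be told apart. A value table was deposited beside the scanner files, and the share of probes for which both sources were within 1% of each other was 99.8% in 5 samples and 0.853% in LKO pool 3, so results that rest on that pool are also given with the value table or without it. Of the 10 hepatocyte markers, 9 were on the array and all 9 were above background on all 6 arrays. Sirt1 probe A_52_P358612 read 0.29, 0.37 and 0.24 in control pools 1 to 3 and -0.07, 0.09 and 0.16 in the LKO pools (difference -0.24, adjusted p = 0.243), and the other Sirt1 probe differed by -0.02. Without the deleted exons, neither probe checks the labels.

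Values are log2 intensities minus the 75th percentile of their array, so 0 is that percentile and 1 unit is a doubling. They are listed as control pools 1, 2 and 3 and then LKO pools 1, 2 and 3, and a difference is the LKO mean minus the control mean with its standard error (SE) from limma over 23606 probes. Of the 113 member probes, 105 probes of 79 genes were tested, having been well above background in at least 1 group on each of its 3 arrays. Of all members, 103 were above background on all 6 arrays, 7 on none, and none was saturated. The other 2 tested probes, dim probes of Ndufa3 and Atp5f1 drawn from cDNA clones, were above background on 2 of 3 control arrays and on 3 of 3 LKO arrays, so each was tested only through the group in which it was higher. The 8 untested members were second probes of Ndufab1, Ndufs1, Ndufs4, Sdhc and Cox5a drawn from cDNA clones, and the probes of Cox4i2, Cox8b and Cox8c.

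No subunit of any complex passed the threshold of an adjusted p of 0.05, where 11 of the 23606 probes tested (0.0466%) did. The members' differences ran from -0.40 to 0.75 with a median of 0.04, beside a median of 0.02 over all probes. The mean was higher in the LKO livers for 68 members and lower for 37 (52.7% of all probes were higher). At an unadjusted p under 0.05 there were 4 members higher and 3 lower of 105, where all probes had 10.7% higher, 10.5% lower and 21.2% in either direction. The 3 LKO pools lay above the 3 controls in 12 members and below them in 6, where all probes had 14.9% above, 14% below and 28.9% either way. Among the 103 members above background on all 6 arrays, 66 were higher and 37 lower in mean, 2 were higher and 3 lower by the unadjusted p, and the LKO pools lay above the controls in 10 and below in 6.

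Most differences had narrow intervals. The 95% interval of the difference lay within 1.5-fold in both directions for 96 of the 105 members (91.4%), against 55.4% of all probes tested. The median SE was 0.11 for members and 0.14 for all probes. By complex, 48 of 49 probes of complex I, 4 of 5 of complex II, 9 of 10 of complex III, 13 of 17 of complex IV and 22 of 24 of complex V had such an interval. These intervals are for each probe alone and cover the spread between pools.

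**Figure D1:**
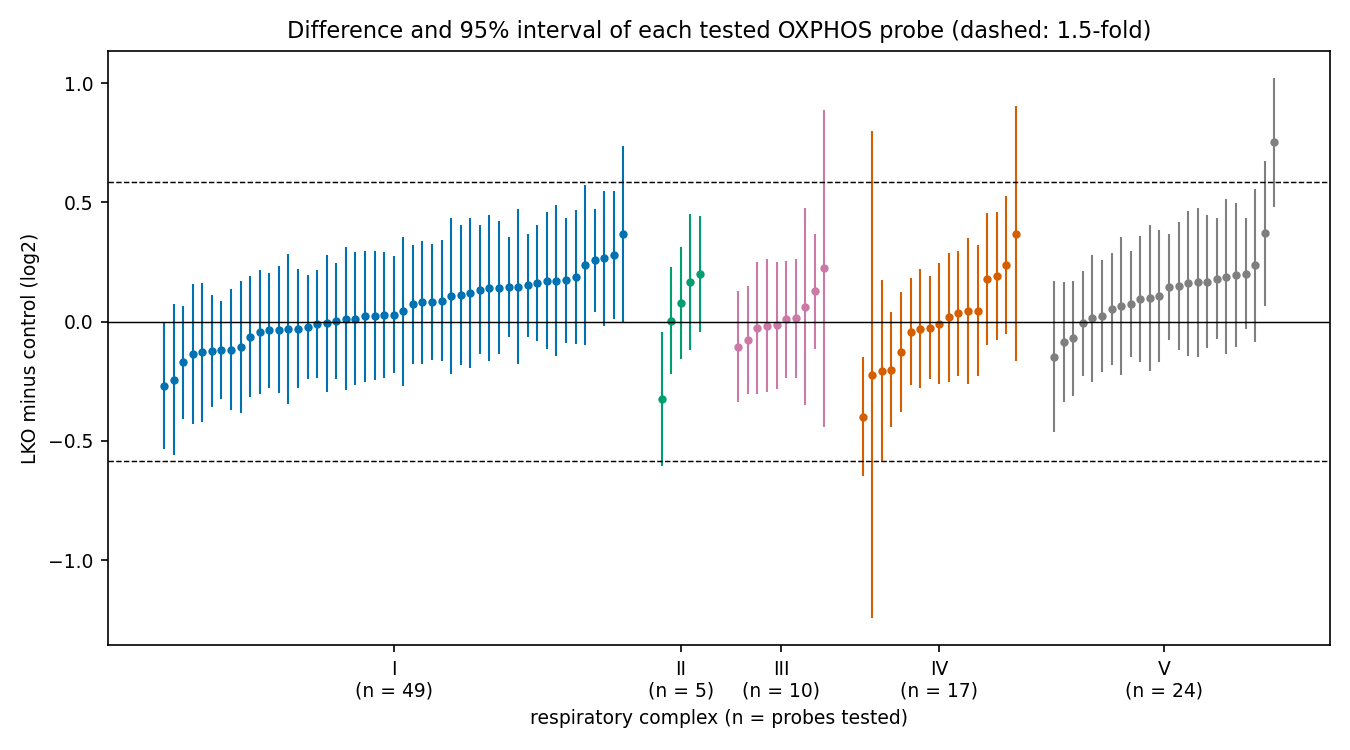
Difference of each of the 105 tested member probes (points, LKO minus control, log2 units) with its 95% interval (bars), sorted within complexes I to V on the x axis, with dashed lines at 1.5-fold. Most bars stay between the dashed lines and cross 0. The Atp5f1 probe at 0.75 is the highest point.

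Complex I takes electrons from NADH. Its 49 tested probes had a median difference of 0.03 (-0.27 to 0.37), with 31 higher and 18 lower and adjusted p-values from 0.183 to 0.991. The 7 nuclear core subunits, which carry the flavin and the iron-sulphur clusters, had a median of 0.00, with 4 higher and 3 lower.

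Ndufv1, which binds the flavin that accepts electrons from NADH, read 6.13, 6.27 and 6.29 in the controls and 6.02, 6.18 and 6.11 in the LKO pools, a difference of -0.12 (SE 0.10, adjusted p = 0.502). Its groups overlapped. Ndufv2, its iron-sulphur partner, read 4.22, 4.24 and 4.42 and then 4.53, 4.48 and 4.37 (0.16, SE 0.10, adjusted p = 0.396), and these groups overlapped through LKO pool 3. Ndufs1, the largest iron-sulphur subunit, read 5.39, 5.50 and 5.50 and then 5.57, 5.50 and 5.34, a difference of 0.00 (SE 0.10, 95% interval -0.24 to 0.25). Ndufs7, which holds the last cluster before ubiquinone, differed by -0.06 and Ndufs3 and Ndufs8 by 0.14 and 0.13, all with overlapping groups. The core subunits had differences of both signs, of which that of Ndufv2 was the largest in size.

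The accessory subunits surround this core. The lowest difference in complex I was that of Ndufa10, a membrane-arm subunit related to nucleoside kinases, with 4.23, 4.29 and 4.30 in the controls and 3.87, 3.97 and 4.18 in the LKO pools (-0.27, SE 0.11, adjusted p = 0.229). All 3 LKO pools were below the controls, and LKO pool 3 was nearest to them. The highest was that of Ndufa8, a subunit on the intermembrane-space side, with 4.84, 4.95 and 5.01 and then 5.47, 5.45 and 4.98 (0.37, SE 0.15, adjusted p = 0.238). LKO pools 1 and 2 stood above every control and LKO pool 3 lay among them. Without LKO pool 3 the Ndufa8 difference was 0.52, and with the value table, where that pool read 5.36, it was 0.49.

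Ndufa3, a small membrane subunit, read 3.75, 3.96 and 3.99 and then 4.24, 4.25 and 4.00 with its RefSeq probe, without overlap (0.27, SE 0.12, adjusted p = 0.259). Its dim cDNA-clone probe, tested only through the LKO group, read -4.50, -4.63 and -4.53 and then -4.25, -4.31 and -4.34. Both Ndufa11 probes, for a subunit at the contact with complex III, were lower (-0.24, SE 0.13, and -0.13, SE 0.12), with overlapping groups.

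The 11 probes of the Ndufb subunits, which lie in the proton-pumping membrane arm, had a median of 0.08 and 8 were higher. Ndufb8, an inner-membrane subunit, gave 0.28 (SE 0.11, adjusted p = 0.221) from a cDNA-clone probe that read -0.51, -0.67 and -0.55 and then -0.13, -0.37 and -0.40, and 0.14 from its RefSeq probe. Ndufb3 read 5.48, 5.56 and 5.57 and then 5.39, 5.47 and 5.25, with all LKO pools lower (-0.17, SE 0.10, adjusted p = 0.363). The remaining Ndufb probes differed by between -0.04 and 0.12, and Ndufa4, a subunit since placed in complex IV, differed by 0.19 with overlapping groups. The assembly factor Ndufaf1, which the name rule takes in although it is not a subunit, differed by -0.03.

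Complex II, succinate dehydrogenase, links the citric acid cycle to the chain. Its 4 genes did not have differences of 1 sign, and for Sdha, the flavoprotein that oxidises succinate, the answer depended on the probe. Probe A_51_P410823 read 4.94, 5.20 and 5.18 in the controls and 4.90, 4.67 and 4.77 in the LKO pools, a difference of -0.32 (1.25-fold lower, SE 0.12, 95% interval -0.61 to -0.04, adjusted p = 0.189). All LKO pools lay below all controls, with LKO pool 1 close to control pool 1. Probe A_52_P109503 read 4.06, 4.09 and 4.15 and then 4.21, 4.05 and 4.06, a difference of 0.00 (SE 0.09, 95% interval -0.22 to 0.23). The first probe kept its sign with the value table (-0.36), without LKO pool 3 (-0.32) and with quantile normalization (-0.39).

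The Sdha probes were designed to different places of the gene. The first 30 of their 60 bases are shown because the probes gave different differences, in lower case as no base is singled out (build mm7, minus strand, coordinates of the whole probe in the files). Their exons were not placed here.
A_51_P410823, chr13:71255611-71255670: tgcagcacaagtattgttttgttcattctc
A_52_P109503, chr13:71261221-71261280: tgaatcttgacaagttgagatttgccgatg

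Sdhb, the iron-sulphur subunit, read 5.95, 6.12 and 6.17 and then 6.36, 6.24 and 6.25, so that every LKO pool lay above every control (0.20, SE 0.10, adjusted p = 0.303). With normexp background correction its difference was -0.13. The membrane anchors that bind ubiquinone and haem had overlapping groups. Sdhc read 4.53, 4.57 and 4.40 and then 4.61, 4.64 and 4.49 (0.08, SE 0.10), and Sdhd, whose upstream stretch with a GABP motif is printed above, read 5.85, 5.97 and 5.94 and then 6.23, 6.14 and 5.88 (0.17, SE 0.12, adjusted p = 0.455). The second Sdhc probe was not well above background on any array.

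**Figure D2:**
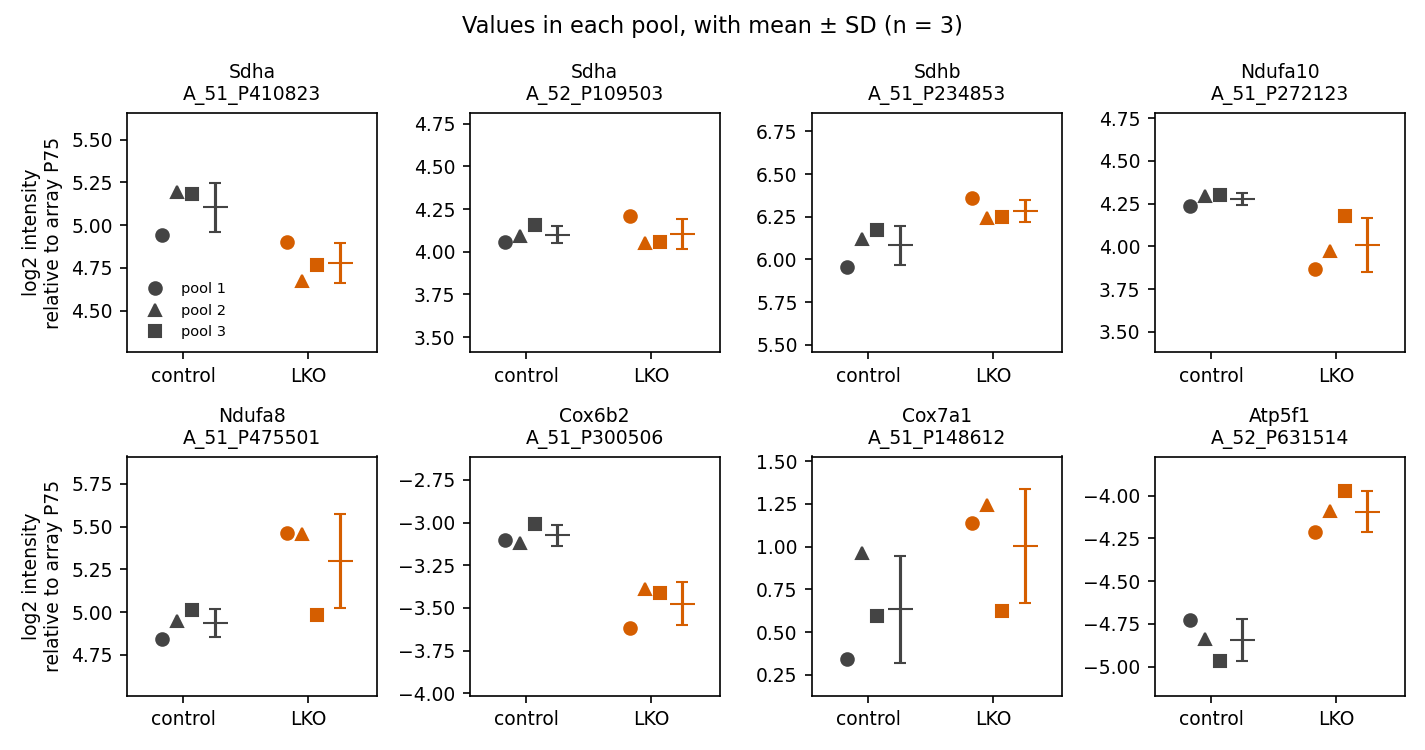
Values of 8 member probes in each pool (log2 intensity minus the 75th percentile of the array, symbols mark the pool number within its group) with mean ± SD of 3 pools beside them, in panels that each have a scale of their own. The LKO pools are lower for Sdha probe A_51_P410823 and overlap the controls for A_52_P109503, and LKO pool 3 lies among the controls for Ndufa8 and Cox7a1.

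Complex III passes electrons from ubiquinol to cytochrome c. Its 10 probes had a median of -0.00, with 5 higher and 5 lower, and no probe had groups without overlap. Uqcrfs1, the Rieske iron-sulphur protein, read 5.91, 5.95 and 6.00 and then 5.94, 6.10 and 5.85 (0.01, SE 0.10, 95% interval -0.24 to 0.25). The core proteins Uqcrc1 and Uqcrc2 gave 0.06 and 0.13 from the Uqcrc1 probes and -0.08 for Uqcrc2, which read 6.34, 6.44 and 6.46 and then 6.36, 6.40 and 6.25. Uqcrh, the hinge protein beside cytochrome c1, had the lowest difference of the complex (-0.10, SE 0.10), with 6.31, 6.48 and 6.45 and then 6.34, 6.35 and 6.23.

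The highest complex III difference, 0.22 (SE 0.28), came from a dim Uqcrq probe of a cDNA clone. It read -3.51, -3.45 and -3.41 and then -3.39, -3.73 and -2.59, so that LKO pool 3 alone was high, and the difference was -0.10 without that pool and -0.03 with the value table. The RefSeq probe of Uqcrq, a small subunit of the complex, differed by -0.03 (SE 0.12).

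Complex IV, cytochrome c oxidase, reduces oxygen, and several of its nuclear subunits exist as a general isoform and an isoform of particular tissues. The 11 probes of general or single-copy subunits had a median of -0.01 (5 higher, 6 lower), and all 11 intervals lay within 1.5-fold. Cox4i1, the general form of subunit 4, read 7.22, 7.41 and 7.39 and then 7.31, 7.45 and 7.24 (-0.01, SE 0.11, 95% interval -0.26 to 0.24). Cox6a1, whose upstream stretch with NRF1 and GABP motifs is printed above, read 8.21, 8.29 and 8.32 and then 8.40, 8.37 and 8.10 (0.02, SE 0.11). Cox8a differed by 0.04 and Cox6b1 by -0.13, again with overlapping groups.

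The general subunits furthest from 0 were Cox7c and Cox7a2. Cox7c read from 2.97 to 3.19 in the controls and 3.24, 3.47 and 3.17 in the LKO pools (0.24, SE 0.12, adjusted p = 0.304), and overlapped through LKO pool 3. Cox7a2, the form of subunit 7a found in most tissues, read 5.82, 6.00 and 6.04 and then 5.69, 5.78 and 5.78 with 1 probe (-0.20, SE 0.10, adjusted p = 0.297), below the controls in 3 of 3 pools. That probe lies at chr9:79831804-79831863 (mm7, minus strand), and a probe that overlaps it, at chr9:79831792-79831851, differed by -0.03 (SE 0.10).

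Of the tissue isoforms tested, Cox6b2 and Cox6a2 were dim in liver, while Cox7a1 read above the 75th percentile of every array. Cox6b2, the testis form of subunit 6b, had the lowest difference of all members, with -3.10, -3.12 and -3.01 in the controls and -3.62, -3.39 and -3.41 in the LKO pools (-0.40, 1.32-fold lower, SE 0.10, adjusted p = 0.123). Its groups did not overlap, and the difference was -0.26 with the value table, -0.36 with quantile normalization and 0.04 with normexp background correction. Of 9 testis marker probes 4 were never above background (among them Ldhc and Pgk2), and their summed intensity, relative to the 75th percentile, was 0.420 to 0.525 in the controls and 0.329 to 0.415 in the LKO pools. The part of these levels in the Cox6b2 difference was not tested.

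Cox7a1, the form of subunit 7a of heart, skeletal muscle and brown fat, read 0.34, 0.96 and 0.59 and then 1.14, 1.24 and 0.62 (0.37, SE 0.22, adjusted p = 0.380). LKO pools 1 and 2 were above the controls and LKO pool 3 was among them, and the difference was 0.71 with the value table and 0.56 without that pool. Cox6a2, the heart and skeletal muscle form of subunit 6a, read -4.21, -4.39 and -3.87 and then -4.46, -3.46 and -5.22 (-0.22, SE 0.43, adjusted p = 0.793), a spread within the LKO group larger than the difference. Its sign changed to 0.20 without LKO pool 3. Cox4i2, Cox8b and Cox8c, isoforms of lung, of muscle and of testis, were not measured above background on all arrays of a group.

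Markers of tissues that express these isoforms were measured beside them. Of 17 striated muscle probes 8 were never above background, among them Ckm, Mb and Myl1, and their summed intensity was 0.599 to 0.750 in the controls and 0.647 to 0.683 in the LKO pools. Of 12 adipose probes 3 were never above background, Plin1, Ucp1 and a Retn probe, and the sum was 10.0 to 13.5 in the controls and 13.0 to 15.7 in the LKO pools. Adipose markers did not differ in 1 direction. Fabp4 encodes a fatty acid binding protein. Its probes read 1.83, 2.11 and -4.08 on average in the controls and 2.07, 2.40 and -3.75 in the LKO pools. Of the lipid droplet proteins, Plin4 read 0.47 and then 1.47 on average, and Cidec differed by -0.00. Cfd (adipsin) read -2.22, 0.08 and -1.46 in the controls and -3.40, -4.29 and -6.23 in the LKO pools. Its probe was above background on 3 of 3 control arrays and on 2 of 3 LKO arrays. Cfd thus entered the test only through the controls, where it read higher. The fitted difference of -3.44 (SE 0.85, adjusted p = 0.114) was the lowest of all probes tested. That size rests in part on an LKO array where the probe was not well above background. Leaving out LKO pool 3 gave -2.65 for Cfd, and its value table difference was -2.69. The part of muscle or adipose RNA in the Cox7a1 values was not tested. Cox7a2l, which joins complexes III and IV and is not an oxidase subunit, read 4.16, 4.25 and 4.29 and then 4.55, 4.47 and 4.25 (0.19, SE 0.11). Cox4nb, a neighbour of Cox4i1 whose current symbol is Emc8 and which the name rule takes in, gave -0.21 and 0.05 from its 2 probes.

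Complex V had a median of 0.13 over 24 probes, with 20 higher and 4 lower and all adjusted p-values between 0.075 and 0.974. The value was 0.11 over the 23 probes above background on all 6 arrays, 0.15 without LKO pool 3, 0.18 with the value table, 0.09 with quantile normalization and 0.00 with normexp background correction, where 12 of the 24 were higher. In the main fit with the Atp5s probes left out, which are not of a subunit, the median was 0.10. In the catalytic F1 head, 7 of 8 probes were higher with a median of 0.08. Atp5a1, the alpha subunit, differed by 0.07 and 0.16, Atp5b, the catalytic beta subunit, by 0.02, 0.09 and 0.15, and Atp5c1, the rotating gamma shaft, by 0.07. Atp5d, the delta subunit at the foot of the shaft, read 5.37, 5.53 and 5.49 and then 5.56, 5.66 and 5.62, the only F1 probe without overlap (0.15, SE 0.09, adjusted p = 0.401). Atp5e, the epsilon subunit, differed by -0.07 (SE 0.10).

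Atp5g1, Atp5g2 and Atp5g3 encode the same mature c subunit, which forms the rotor ring in the membrane. All 4 of their probes were higher, with overlapping groups. Atp5g1 read 5.44, 5.65 and 5.58 and then 5.76, 5.85 and 5.56 (0.17, SE 0.12, adjusted p = 0.439), Atp5g2 differed by 0.16 (SE 0.13) and 0.19 (SE 0.14), and Atp5g3 read 7.99, 7.99 and 7.97 and then 8.19, 8.20 and 7.88 (0.11, SE 0.12). LKO pools 1 and 2 were above all controls and LKO pool 3 was not, for each of the 4 probes.

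The peripheral stalk, which holds the head still, had a median of 0.18 over 7 probes with 6 higher. Of these probes 3 were of Atp5f1, and that count and median include the dim Atp5f1 probe described next, tested only through the LKO group. The other stalk probes differed by between -0.01 and 0.24. The highest member of all was a dim probe of Atp5f1, the b subunit of the stalk (current symbol Atp5pb), drawn from cDNA AK081249, with -4.73, -4.84 and -4.97 in the controls and -4.21, -4.09 and -3.97 in the LKO pools. It was above background on 2 of 3 control arrays and 3 of 3 LKO arrays, so it was tested only through the group in which it was higher. The fitted difference was 0.75 (SE 0.11, adjusted p = 0.0753), and it rests in part on a control array on which the probe was not well above background. The other Atp5f1 probes differed by 0.20 (SE 0.13) and 0.24 (SE 0.13), with overlapping groups. Without LKO pool 3 the dim probe gave 0.69 with an adjusted p of 0.0493, where 2.86% of all probes passed and no other member did. With the value table it gave 0.54, and no member passed where 1.24% of all probes did.

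The 3 Atp5f1 probes lie at different places, and the first 30 bases of each are shown in lower case so that the dim probe can be set against the transcript (build mm7, minus strand, with no base singled out). The middle probe spans more of the genome than its 60 bases, as 23 member probes do, so by the coordinates in the files its bases are not contiguous there.
A_51_P168708, chr3:105761241-105761300: aaggctcaagctcagccaattatgtgaata
A_52_P106929, chr3:105772410-105774244: cgtcttgggctgattcctgaggacttagct
A_52_P631514, chr3:105777016-105777075: gccagcttgcatactcattcggacgtttgt

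In the same stalk, the probes of Atp5h (subunit d) differed by 0.05 and 0.18, Atp5o (the oligomycin-sensitivity protein) by 0.01 and Atp5j (coupling factor 6), whose upstream stretch with YY1 and GABP motifs is printed above, by -0.01 (SE 0.09, 95% interval -0.23 to 0.21). Of the small membrane subunits of Fo, 1 of 3 probes was higher, and 2 of 3 were with the value table. The lower probes of complex V were those of Atp5k, Atp5j2, Atp5e and Atp5j. Atp5k (subunit e), whose stretch with an NRF1 motif is printed above, read 4.63, 4.86 and 4.82 and then 4.56, 4.84 and 4.47 (-0.15, SE 0.13), Atp5j2 (subunit f) differed by -0.08 and Atp5l (subunit g) by 0.10. Atp5s, whose current symbol is Dmac2l and which is not a subunit, read -2.16, -1.94 and -2.10 and then -1.85, -1.73 and -1.50 with 1 probe (0.37, SE 0.13, adjusted p = 0.175) and differed by 0.20 with the other, without overlap in either.

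For 21 genes more than 1 probe was tested, and in 17 all probes had the same sign. The exceptions were Sdha, Uqcrq, Cox4nb and Ndufs6, a peripheral-arm subunit whose 3 probes lay between -0.03 and 0.02. The gap between probes was 0.33 for Sdha and 0.56 for Atp5f1, and at most 0.25 for the others. The probes of Ndufa1 differed by -0.12 and -0.11.

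**Figure D3:**
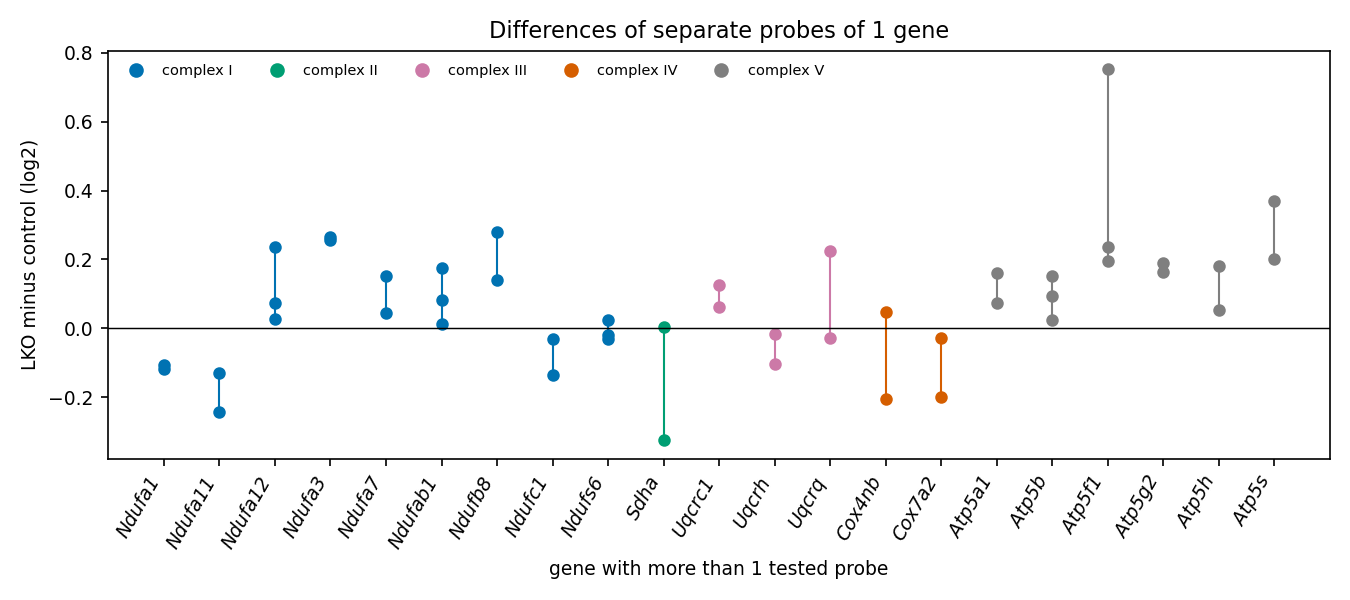
Differences (LKO minus control, log2 units) of separate tested probes of 1 gene, with 1 column per gene and a line joining its probes, coloured by complex. The long lines are those of Atp5f1 (0.20 to 0.75) and Sdha (-0.32 to 0.00), and the Ndufa1 and Ndufa3 probes lie on each other.

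The members also shared a pattern across pools of the same genotype. Control pool 1 was the lowest control in 92 of the 105 members (87.6%) against 35.7% of all probes tested, and its median distance from the mean of the other controls was -0.14 over members and 0.02 over all probes. LKO pool 3 was the lowest LKO pool in 76 members (72.4%) against 44.9%, at a median distance of -0.18 against -0.03. In complex III this was so for 9 of 10 probes, and in complex II for 2 of 5. LKO pools 1 and 2 both lay above all controls in 56 members (53.3%) against 28% of all probes, and both below in 7 (6.67%) against 23.6%. The array of LKO pool 3 was alone on its slide and had the 75th percentile of 1289, while control pool 1 shared its slide with the other controls. Cell type markers also set control pool 1 apart, in both directions. It was the highest control for all 13 probes of Kupffer cells and macrophages and all 9 of endothelium that were tested, against 42.1% of all probes. It was the lowest control for all 6 adipose probes tested, 7 of 8 erythroid and 9 of 16 hepatocyte probes, against 35.7% of all probes. Adgre1, which encodes the macrophage marker F4/80, read 2.54, 1.92 and 1.56 in the controls and 1.83, 1.99 and 1.55 in the LKO pools with probe A_51_P251768. The summed intensity of the Kupffer and macrophage probes was 67.9 to 113 times the 75th percentile in the controls and 74.9 to 91.3 times in the LKO pools, and 12 of the 13 were lower in mean in the LKO livers (5 of 13 with the value table). LKO pool 3 was the lowest LKO pool for 7 of the 13. The part of slide, signal level or these cells in the members' pattern was not tested.

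These shifts between pools depended on the scaling of the arrays. With quantile normalization control pool 1 was lowest in 59 members (56.2%) and LKO pool 3 in 44 (41.9%), against 37.1% and 42.7% of all probes. With normexp background correction they were lowest in 74 (70.5%) and 6 (5.71%), against 38.9% and 41.4%. Under normexp LKO pool 1 was instead the low pool. The members' median deviation from the mean of a probe over the 6 pools was -0.28 in LKO pool 1 and 0.18 in LKO pool 2. Over all probes these values were 0.18 and -0.07. With the value table LKO pool 3 was lowest in 29 members (27.6%, against 36.9% of all probes). The median difference of the members was 0.12 without LKO pool 3 (79 of 105 higher), 0.13 with the value table (85 higher), 0.02 with quantile normalization (55 higher) and -0.03 with normexp (42 higher), beside medians over all probes of 0.02, 0.04, 0.00 and 0.09. The direction of the members as a group was thus not the same under each scaling.

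**Figure D4:**
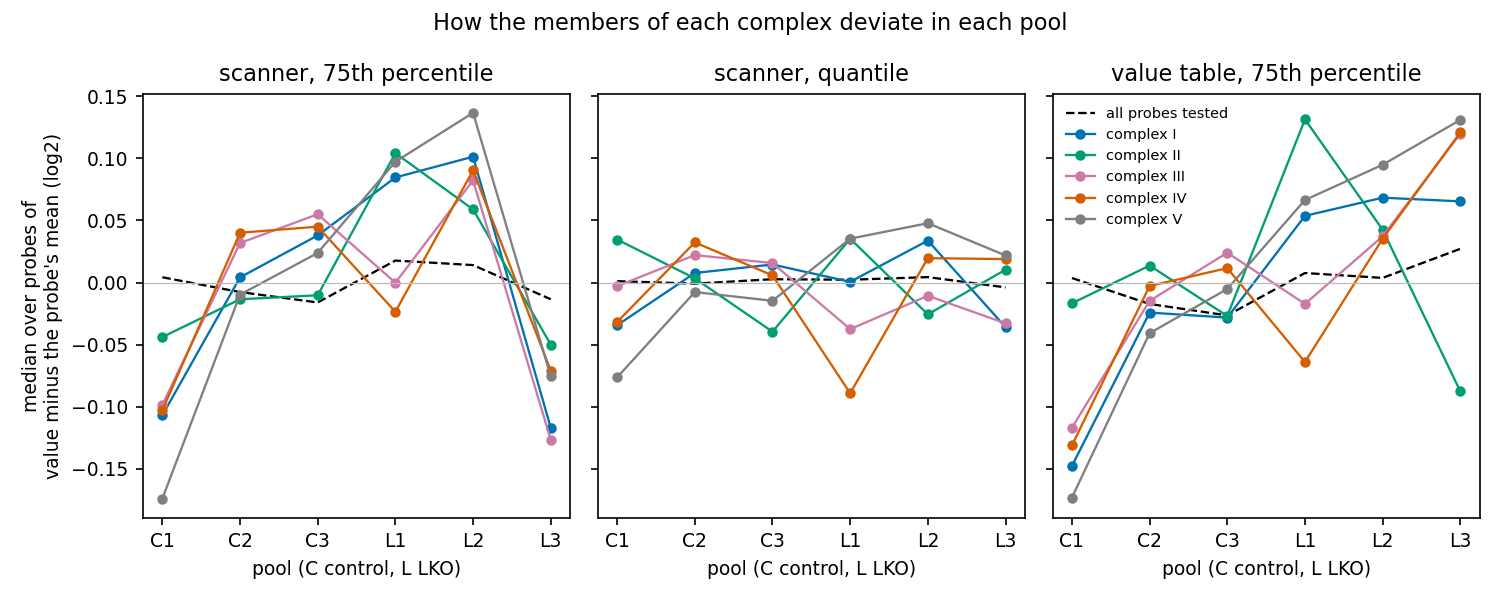
Median over the tested probes of each complex, in each pool, of the value minus the mean of that probe over the 6 pools (log2 units), with all probes as a dashed line, for 3 scalings. With the 75th percentile, control pool 1 and LKO pool 3 are low in every complex (complex V -0.17 and -0.08). With quantile normalization most medians lie closer to 0, and with the value table LKO pool 3 is high except for complex II (-0.09).

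When arrays were weighted by their spread, 20.4% of all probes passed (10.8% higher, 9.52% lower), and 9 of 105 members did. The 6 higher were Ndufa8, 1 probe each of Ndufa12 and Ndufb8, 2 of Atp5f1 and the dim probe of Ndufa3, while the RefSeq probe of Ndufa3 had an adjusted p of 0.0524. The dim Ndufa3 probe and 1 of the Atp5f1 probes are those tested only through the LKO group. The 3 lower were Ndufa10, the first Sdha probe and Cox6b2. The members' share was therefore below that of all probes.

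Other genes of the pathway were taken from lists by role, and none of their probes passed with the scanner values of all pools. The exception with the value table was a dim probe of Acad9, a complex I assembly factor (0.74, adjusted p = 0.049). The other Acad9 probe, which was brighter, was lower, with -0.15 from the value table (adjusted p = 0.324) and -0.13 from the scanner values. For electron carriers, coenzyme Q synthesis and subunits named outside the rule, 18 probes of 11 genes were tested, with a median of -0.01. Of these, 2 were higher and 2 lower at an unadjusted p under 0.05, where all probes had 10.7% and 10.5%. The smallest p was that of a dim probe of Atpif1, the inhibitor of ATP synthase (adjusted p = 0.149). That probe was above background on 1 of 3 control arrays and was tested only through the LKO group, so its size is not given, and the other Atpif1 probe differed by -0.11 (SE 0.15). Among 55 probes of 32 assembly factor genes the median was 0.06. At an unadjusted p under 0.05, 4 were higher and 2 lower, beside the same 10.7% and 10.5% of all probes. Atpaf1, which assembles the F1 head, read 1.01, 0.74 and 0.92 and then 0.07, 0.31 and 0.40 with 1 probe (-0.63, SE 0.13, adjusted p = 0.0907), and its other probes gave 0.30 and 0.14.

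Among 31 probes of 15 regulator genes the median was 0.03, with differences from -0.82 to 0.49. At an unadjusted p under 0.05, 5 were higher and 4 lower, where all probes had 10.7% higher and 10.5% lower. Esrra, the gene of ERRalpha, read 3.06, 3.29 and 3.32 and then 3.79, 3.72 and 3.62, without overlap (0.49, SE 0.11, adjusted p = 0.105), while its other probe gave 0.28 (SE 0.31). Ppargc1a, the gene of PGC-1alpha, read 0.65, 0.55 and -0.01 and then -0.69, -0.60 and 0.24 with probe A_51_P279038 (-0.75, SE 0.29, adjusted p = 0.218, and -1.04 without LKO pool 3), where LKO pool 3 lay among the controls, and its other probe gave -0.21 (SE 0.19). The probes of its relative Ppargc1b differed by -0.47 (SE 0.17, adjusted p = 0.187), -0.31 and 0.30. The mitochondrially encoded subunits are not analysed here. A further 13 probes of 9 genes carry a current subunit or complex I assembly factor symbol but an older name in the files, and so fall outside the rule. Of these 12 were tested, none passed and 8 were higher. They included Ndufv3, with differences of 0.25, 0.02 and -0.15 from its 3 probes, Uqcr10 (-0.03) and Atp5mpl (-0.26).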

How the data were processed

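The series holds 6 arrays, 3 pools of Lox control and 3 of SIRT1 LKO liver. Spot intensity was read from the arrays with Agilent Feature Extraction 9.5 (the submitters' processing notes), whose processed intensity had background subtracted and spatial trends removed, per the file headers. A value table deposited with the series gives a linear intensity for each probe in each sample from the Rosetta Resolver error model, per the labels. Other deposited columns are flags of 0 or 1 for outlier, saturated and well-above-background spots. No centring of the value table was found (column medians in the controls 74.5, 62.5 and 62.9, in the LKO pools 62.0, 62.5 and 62.6). How its column for LKO pool 3 was made is unknown.

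After removal of control spots and outlier spots, log2 values of a probe's spots were averaged and each array's 75th percentile was subtracted. The 23606 probes that at least 1 group had well above background on each of its 3 arrays were tested with limma 3.58.1 in R 4.3.3 (lmFit and eBayes, genotype only, two-sided, Benjamini-Hochberg over all of them, threshold 0.05). The steps were tested on simulated data. Same-numbered pools had correlations of deviations of 0.01, -0.04 and -0.09, and the other pairs had -0.08 to 0.13. Deviations from a mean of 3 pools are not independent, so these values cannot decide whether pools were paired. The main fit used no pairing.

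Members and lists were chosen with earlier results of these data known. Named members are the 3 largest rises and falls of each complex and those of fixed roles (core, catalytic, c subunit, isoform pairs, complex II), and, outside the members, Sirt1 and the smallest p of each list; others were named for a role or for a second probe after their values were seen. A result that this rule names is not reported here. Names are those of the files, 99 of 113 members matched RefSeq (GRCm38.p6) by accession, and 6 have another current symbol. Probe coordinates are on mm7. Alternatives were other background, scaling, filter, probe, variance, weight, block and source choices and leaving out each pool. Figures were drawn with matplotlib 3.10.9.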

Additional observations from a re-analysis of the deposited data

How the results depend on the processing

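The count of all probes past the threshold, 11, was 0 with normexp (offset 50), with no filter on dim probes and with the slide as a random block (correlation 0.31), 17 with quantile normalization, 24 with 1 probe per gene and with the mean of a gene's probes, 49 with probes above background on all 6 arrays, 91 with a trend and robust variance, 293 with the value table, 4804 with array weights, 987 at an unadjusted p under 0.01 with 1.5-fold, and 0 to 676 with a pool left out (676 without LKO pool 3). With the replicate number as a block, which the labels do not give as a pairing, no probe and no member passed (0 and 0). The count of member probes, 0, was 9 with array weights, 1 at the unadjusted p with 1.5-fold, 0 to 1 with a pool left out (1 without LKO pool 3), and stayed 0 in the other settings. The medians of complexes I, II and V were -0.066, -0.080 and 0.0046 with normexp, those of complexes III and IV were 0.10 and 0.080 with the value table, and that of complex IV was -0.059 to 0.051 with a pool left out (0.051 without LKO pool 3). Among named members, a sign change is given where both values are at least 0.1 in size or either fit calls the probe. With normexp these were Ndufs8 (-0.13), Ndufv2 (-0.11), Sdhb (-0.13), Atp5g3 (-0.14), the dim Cox4nb probe (0.25) and Cox6a2 (0.18), and Cox6a2 also gave 0.35 with array weights, 0.13 from the value table and -0.68 to 0.20 with a pool left out (0.20 without LKO pool 3). The cause was not tested. Over all 17 settings fitted by probe, 44 members kept their sign and 61 changed it at least once. The number of arrays limits the precision, and dim probes such as those of Cox6a2 and Uqcrq are limited by their signal over background.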
